A study of Mus musculus with 6 samples.

Results

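The genes described here are 2 lysozymes (Lyz1 and Lyz2) and 3 chitinase-like proteins (Chi3l3, Chi3l4 and Chi3l1) of the mouse. They were found by symbol, and all 5 were present among the 35237 genes of a Cufflinks table and among the 36536 entries of an ALEXA-Seq table made from the same RNA-Seq libraries. The genes were picked with the contrast between the cell types already known, so their levels are given as a description without a test. FPKM is the number of sequenced fragments scaled by transcript length and by the number of mapped fragments, and 4 of the 5 genes reached 3 FPKM in some library, the minimum used for the comparison across all genes. Chi3l1 did not.

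Bone marrow monocytes (BMDM, sorted as CD11b+ CD45high CD115+ Ly6G-) were compared with brainstem microglia (BSM, sorted as CD11b+ CD45low CD115low Ly6G-), to find transcripts that separate marrow-derived from brain-resident myeloid cells. Both came from untreated C57BL/6 mice of 6 weeks, with 3 libraries for each cell type, each from its own pool of sorted cells, and the sample labels give male mice for replicate 1 and female mice for replicates 2 and 3 of both. The monocytes were taken from the marrow and were not cells that had entered the brain, and the Ly6G- gate of both sorts leaves out cells that carry this neutrophil surface protein. RNA was amplified before sequencing with the Ovation RNA-Seq method.

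Lysozyme cuts peptidoglycan, the polymer of bacterial cell walls. The mouse carries a copy used mainly by macrophages, monocytes and neutrophils (Lyz2, lysozyme M) and a copy best known from Paneth cells of the gut (Lyz1, lysozyme P). Chitinase-like proteins have the fold of a chitinase but cannot cleave chitin. Chi3l3 (Ym1, Chil3 in current nomenclature) and Chi3l4 (Ym2, Chil4) are found in rodents and serve as markers of alternatively activated macrophages, and Chi3l1 (Chil1, BRP-39) is a secreted glycoprotein of macrophages, neutrophils and astrocytes.

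The libraries carried the markers of their labels. All 6 microglia markers (among them P2ry12, Tmem119 and Siglech) were higher in BSM in limma, and 4 of 5 monocyte markers were higher in BMDM, the exception being Csf1r, which encodes CD115. Over all genes tested, 9.22% were called as higher in BSM and 45.3% as higher in BMDM. The sum of FPKM over a library ranged from 163199 to 194184 for BMDM and from 68288 to 75021 for BSM. The median log2 difference (BMDM minus BSM) of all 6364 genes tested was 0.81, and it was 0.12 after quantile normalization and -0.23 with every library scaled to the same sum, so that changes near these values depend on the scaling. BSM replicate 1 stood apart with 472 of the tested genes listed at 0, against 51 to 115 in the other libraries, and the RNA quality assessment of the study placed its RNA far below that of the other 5 libraries in integrity. The part of RNA quality in the values of this library was not tested. BMDM replicate 2 stood apart in genes of granulocytes, eosinophils and red cells, which are given below beside the lysozymes. By the study's quality data it also came from fewer cells and less RNA than the other BMDM libraries. A smaller share of its reads was mapped. The tables analysed hold no read counts, which leaves the depth of each value unknown, and no counting interval is given.

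The paralogs lie next to each other. On the mm9 build, Lyz2 was listed at chr10:116714390-116719343 and Lyz1 at chr10:116724853-116729939, with 5509 bases between them. Chi3l3 was listed at chr3:105950472-105970482 and Chi3l4 at chr3:106004408-106022425, with 33925 bases between them, and Chi3l1 at chr1:136078753-136086758. In GENCODE M21 transcripts (GRCm38), Lyz2 and Lyz1 were identical at 95.0% of 444 aligned coding bases and Chi3l3 and Chi3l4 at 95.4% of 1194. Of all stretches of 100 bases in the Lyz1 transcript, the read length of the study, 2.06% occurred letter for letter in Lyz2 and 26.5% with at most 2 mismatches. For Chi3l4 against Chi3l3 these shares were 3.75% and 29.7%. Chi3l1 shared no such stretch with Chi3l3 or Chi3l4 and was identical to them at 64.3% and 65.0% of the aligned transcript bases.

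The following windows show how little sequence separates the copies. They are the 60 coding bases with the most differences within each pair, from GENCODE M21 on GRCm38, all from genes on the minus strand, and the capitals mark the bases that differ between the paralogs. For the lysozymes the window is bases 61 to 120 of the coding sequence in exon 1, with 9 differences (Lyz2 at chr10:117282123-117282182 and Lyz1 at chr10:117292719-117292778). For the chitinase-like genes it is coding bases 500 to 559 in exon 6, with 10 differences (Chi3l3 at chr3:106155714-106155773 and Chi3l4 at chr3:106206041-106206100).
Lyz2: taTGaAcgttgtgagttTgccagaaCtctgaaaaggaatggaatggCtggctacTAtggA
Lyz1: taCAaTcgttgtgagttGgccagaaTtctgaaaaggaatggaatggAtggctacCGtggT
Chi3l3: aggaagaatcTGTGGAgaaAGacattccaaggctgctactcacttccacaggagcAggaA
Chi3l4: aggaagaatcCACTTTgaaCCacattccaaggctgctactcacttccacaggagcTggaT

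Over other stretches a single read cannot tell the paralogs apart. The longest identical coding run of the lysozymes was 118 bases (coding bases 276 to 393) and that of Chi3l3 and Chi3l4 was 136 bases (coding bases 987 to 1122), both longer than a read of 100 bases. The lysozyme run crosses from exon 2 to exon 4 and the other crosses from exon 9 to exon 10. Both are shown because a single read from within them fits either copy. The reads of the study were paired, so the mate of such a read can lie outside the run.
Lyz2 and Lyz1: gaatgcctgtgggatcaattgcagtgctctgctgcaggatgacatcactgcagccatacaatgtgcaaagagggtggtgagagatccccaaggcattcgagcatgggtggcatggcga
Chi3l3 and Chi3l4: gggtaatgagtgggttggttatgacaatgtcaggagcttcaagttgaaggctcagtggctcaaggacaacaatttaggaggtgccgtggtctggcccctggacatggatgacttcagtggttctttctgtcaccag

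Lyz2 and Chi3l3 were among the most abundant transcripts of BMDM, and both were far lower in BSM. In FPKM, Lyz1 and Chi3l4 were listed in BMDM at a small share of their pair, with means of 2.06% and 4.65%. In the ALEXA-Seq values these mean shares were 0.0633% and 0.0229%, so the levels of both genes are uncertain. Chi3l1 was at most 0.449 FPKM in any library. Of the 5 genes, 4 had no overlap between the cell types in either table, all higher in BMDM, and among the 6364 genes tested 55.2% did so in FPKM and 51.5% in the ALEXA-Seq values. Because the genes were picked from this contrast, nothing is read from that count.

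**Figure D1:**
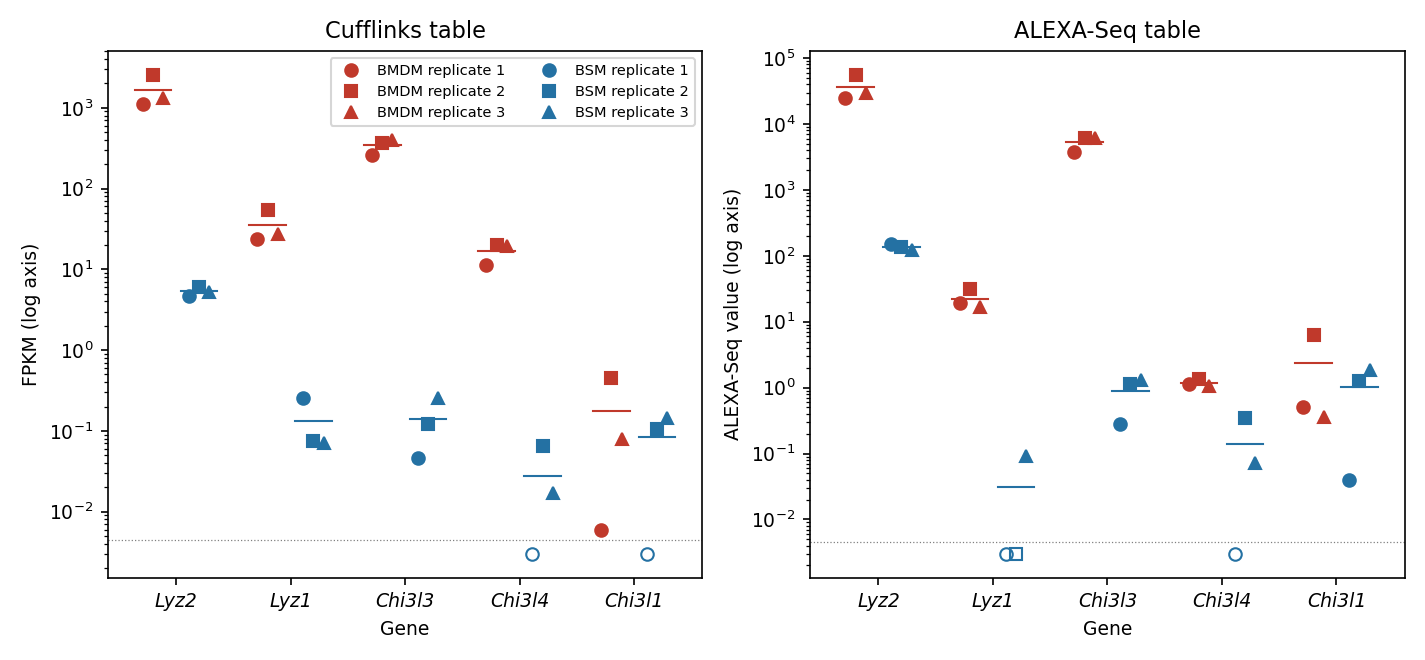
Expression of the 5 genes in each library on a log axis, as FPKM (left) and as ALEXA-Seq value (right), with red for BMDM, blue for BSM, symbols for the replicates, short lines for group means and open symbols under the dotted line for values listed at 0. Lyz2 in BSM (4.68 to 6.00 FPKM) is the only one of these genes above 1 FPKM there, and the Chi3l1 values of the cell types overlap.

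Lyz2 had an FPKM of 1114, 2569 and 1338 in BMDM replicates 1, 2 and 3 and of 4.68, 6.00 and 5.31 in BSM replicates 1, 2 and 3. Every BMDM library was at least 186 times above the highest BSM library, and BMDM replicate 2 was the highest of all. The means were 1674 ± 783 (SD, n = 3) and 5.33 ± 0.659 (SD, n = 3), a ratio of 314 and a difference of 7.96 on the log2(FPKM + 1) scale (standard error 0.38). With every library scaled to the same sum of FPKM the ratio was 123 and the log2 difference 6.74. Lyz2 ranked between 6 and 10 among all genes by FPKM in the BMDM libraries, where it made up 0.683%, 1.32% and 0.771% of the summed FPKM. In BSM it ranked between 1895 and 2188. The ALEXA-Seq values were 24498, 55915 and 29207 in BMDM and 152, 135 and 124 in BSM, a ratio of means of 267. Since bulk RNA of sorted cells was measured, fewer cells that express a gene and less RNA of it per cell cannot be told apart.

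In FPKM Lyz1 followed Lyz2 across the BMDM libraries at a far lower level. Its FPKM was 24.1, 54.2 and 27.2 in BMDM replicates 1, 2 and 3 and 0.253, 0.0743 and 0.0712 in BSM replicates 1, 2 and 3. The cell types did not overlap, and again BMDM replicate 2 was the highest. The ratio of means was 265 and the log2 difference 4.91 (standard error 0.36), a value held down by the pseudocount of 1, as it was 7.23 with a pseudocount of 0.1. The ratio was 483 without BSM replicate 1, which had the highest BSM value, and 102 with the same sum of FPKM. The ALEXA-Seq values were 19.0, 30.9 and 16.7 in BMDM, against 0 in BSM replicates 1 and 2 and 0.0931 in BSM replicate 3, a ratio of means of 715. In this table replicate 3 and not replicate 1 was the lowest BMDM library for Lyz1, and replicate 2 was 1.73 times the mean of the others for Lyz1 against 2.08 times for Lyz2.

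Chi3l3 had the widest gap between the cell types of the 5 genes. Its FPKM was 258, 366 and 402 in BMDM replicates 1, 2 and 3 and 0.0468, 0.121 and 0.252 in BSM replicates 1, 2 and 3. The lowest BMDM library was 1022 times above the highest BSM library, and here BMDM replicate 3, not replicate 2, was the highest. The means were 342 ± 75.2 (SD, n = 3) and 0.140 ± 0.104 (SD, n = 3), a ratio of 2441 and a log2 difference of 8.21 (standard error 0.21). The ratio was 4068 without BSM replicate 3 and 966 with the same sum of FPKM. Chi3l3 ranked between 26 and 36 by FPKM in BMDM. In the ALEXA-Seq table it was 3775, 6117 and 6193 in BMDM and 0.276, 1.12 and 1.31 in BSM, a ratio of means of 5941.

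Chi3l4 had an FPKM of 11.2, 20.2 and 19.2 in BMDM replicates 1, 2 and 3 and of 0, 0.0650 and 0.0172 in BSM replicates 1, 2 and 3. The cell types did not overlap, and the library with the value at 0 is the one with the most genes listed at 0. The ratio of means was 616 and the log2 difference 4.08 (standard error 0.26). That ratio rested on BSM replicate 2, as it was 1964 without it, and it was 411 without BSM replicate 1 and 254 with the same sum of FPKM. In the ALEXA-Seq table the contrast was far smaller, with values of 1.12, 1.35 and 1.05 in BMDM and 0, 0.344 and 0.0729 in BSM, a ratio of means of 8.44 and a log2 difference of 0.94 (standard error 0.14).

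Chi3l1 was low in both cell types. Its FPKM was 0.00591, 0.449 and 0.0801 in BMDM replicates 1, 2 and 3 and 0, 0.106 and 0.143 in BSM replicates 1, 2 and 3. The cell types overlapped, and the highest value belonged to BMDM replicate 2. The ratio of means was 2.15 in favor of BMDM, and it was 0.518 without BMDM replicate 2 and 0.801 with every library scaled to the same sum, so no direction is given. The ALEXA-Seq values overlapped as well, at 0.512, 6.33 and 0.364 in BMDM and 0.0402, 1.25 and 1.82 in BSM.

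In BMDM the order by FPKM was Lyz2, Chi3l3, Lyz1, Chi3l4 and Chi3l1, and no library of a gene reached the range of the next gene in that order. In the ALEXA-Seq table the last 2 of these overlapped, with Chi3l4 between 1.05 and 1.35 and Chi3l1 between 0.364 and 6.33, and the mean of Chi3l1 was the higher (2.40 against 1.17). In BSM Lyz2 stood alone. The other 4 genes lay between 0 and 0.253 FPKM there, and by mean FPKM (Chi3l3, Lyz1, Chi3l1 and Chi3l4) each overlapped the next. Of these 4, Lyz1 and Chi3l4 were apart in FPKM, with Lyz1 at 0.0712 or more and Chi3l4 at 0.0650 or less in every BSM library, but they overlapped in the ALEXA-Seq values.

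The 2 tables differed on how much of each pair belonged to the lesser copy. Lyz1 made up 2.11%, 2.07% and 2.00% of the summed FPKM of Lyz1 and Lyz2 in the BMDM libraries, a mean of 2.06% ± 0.0597 (SD, n = 3). In the ALEXA-Seq values that share was 0.0775%, 0.0552% and 0.0571%. The FPKM of Lyz2 and Lyz1 differed by 2.31-fold and 2.25-fold between the highest and lowest BMDM libraries, and yet kept nearly the same proportion to each other. Chi3l4 made up 4.16%, 5.22% and 4.56% of the summed FPKM of Chi3l3 and Chi3l4 in BMDM and 0.0298%, 0.0221% and 0.0169% of the summed ALEXA-Seq values. How either program divided fragments that fit both copies is not given in the sources used here, so the levels of Lyz1 and Chi3l4 are uncertain. The lesser copy held at most 5.22% of a pair in any BMDM library. In BSM the shares of Lyz1 (1.22% to 5.13%) and Chi3l4 (0% to 34.8%) in FPKM rested on values close to 0.

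**Figure D2:**
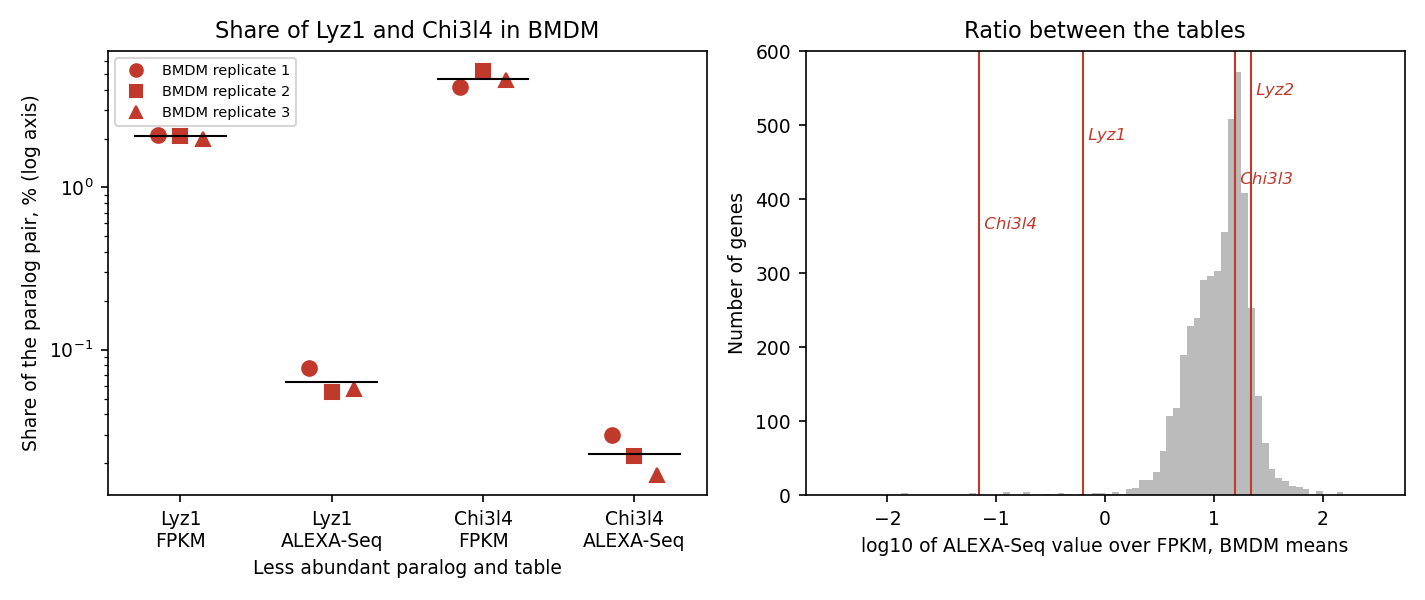
Left, the share of Lyz1 in Lyz1 plus Lyz2 and of Chi3l4 in Chi3l3 plus Chi3l4 in each BMDM library on a log axis, with the mean as a line, for both tables. Right, the number of genes by log10 of mean ALEXA-Seq value over mean FPKM in BMDM, where red lines place Lyz2 and Chi3l3 within the bulk of genes and Lyz1 (ratio 0.631) and Chi3l4 (ratio 0.0696) below it.

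The same disagreement appeared against all other genes. Over the 4416 genes in both tables with a mean BMDM FPKM of at least 3, the ALEXA-Seq mean was a median of 12.7 times the FPKM mean, with 5% of genes below 3.72 and 5% above 26.6. Lyz2, at 21.8, and Chi3l3, at 15.7, lay within that range. Lyz1, at 0.631, was near the lower end of these genes, with 0.951% of them below it. Chi3l4 was lower still, at 0.0696, with 0.453% below it. Chi3l1, which did not reach the minimum, had a ratio of 13.5.

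BMDM replicate 2 had more marker RNA of other marrow cells than the other BMDM libraries, and the lysozymes were highest in the same library. Its FPKM was 2.10 times the mean of replicates 1 and 3 for Lyz2 and 2.11 times for Lyz1. For Chi3l3 it was 1.11 times, for Chi3l4 1.32 times and for Chi3l1 10.4 times. Thus the lysozymes were about doubled there and the main chitinase-like transcript was not. Of 17 granulocyte markers 16 were highest in BMDM replicate 2 among the BMDM libraries, and their summed FPKM was 89.7, 573 and 139 in replicates 1, 2 and 3. Ngp, a granule protein of neutrophil precursors, was 2.44, 77.1 and 3.44 FPKM, and S100a9, a calcium-binding protein of neutrophils and monocytes, was 10.2, 130 and 12.2. Mpo, the myeloperoxidase of primary granules, was 32.7, 181 and 67.1. In contrast Mmp8, a neutrophil collagenase, was even across the BMDM libraries at 13.9, 14.7 and 14.5.

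**Figure D3:**
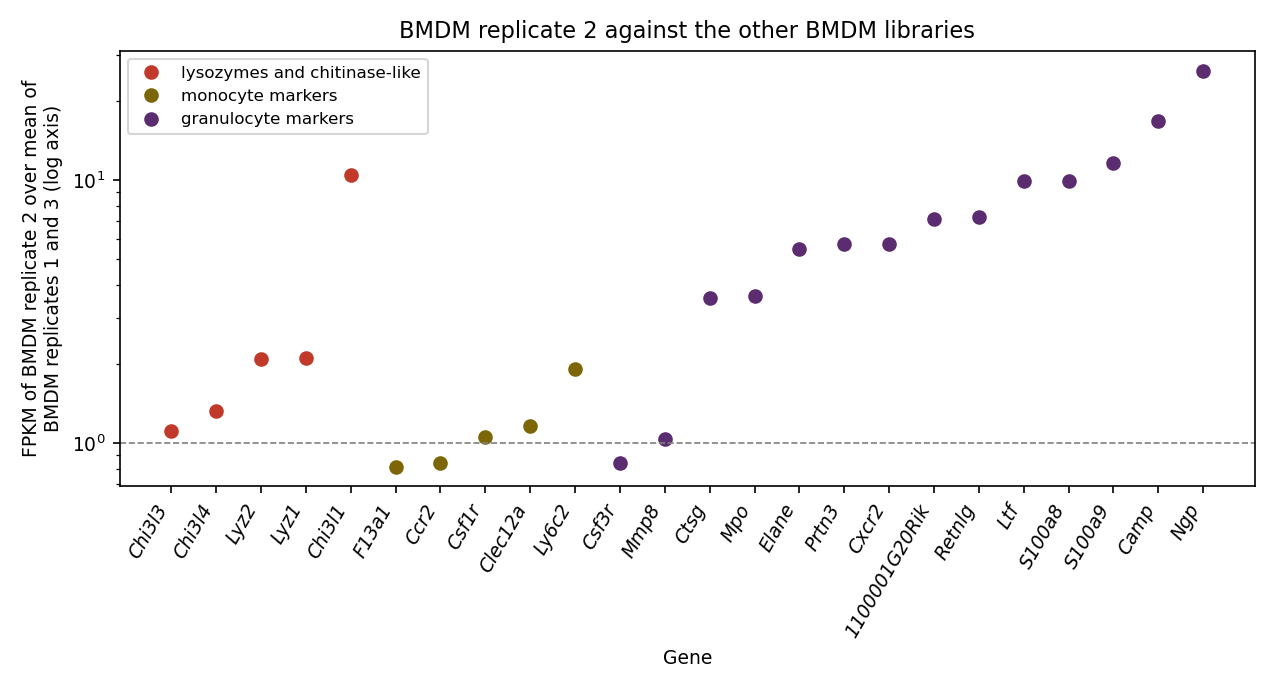
FPKM of BMDM replicate 2 divided by the mean of BMDM replicates 1 and 3 on a log axis, for the 5 genes (red), monocyte markers (brown) and the granulocyte markers with a mean BMDM FPKM of at least 1 (purple), where the dashed line marks no difference. Lyz2 (2.10) and Lyz1 (2.11) lie above Chi3l3 (1.11) and most monocyte markers and below Mpo (3.63), S100a9 (11.6) and Ngp (26.2).

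Markers of other lineages were higher in that library too. The summed FPKM of the eosinophil, basophil and mast cell markers was 3.67, 70.8 and 2.39 in BMDM replicates 1, 2 and 3, most of it Prg2, a major granule protein of eosinophils, at 2.82, 64.5 and 1.73. The erythroid markers came to 17.7, 86.1 and 12. Monocyte markers did not follow, with sums of 361, 349.6 and 395, but Ly6c2, the antigen of classical monocytes, was 1.92 times the mean of the others in replicate 2. The part of these cells, or of the smaller RNA input of this library, in the lysozyme and Chi3l1 values was not tested. Without BMDM replicate 2 the ratio of means was 230 for Lyz2, 193 for Lyz1, 2355 for Chi3l3 and 556 for Chi3l4, all still in favor of BMDM. In BMDM replicates 1 and 3 alone, where Ngp was 2.44 and 3.44 FPKM, Lyz2 was 1114 and 1338 FPKM and Chi3l3 258 and 402.

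The granulocyte list itself was compared between the cell types. Of its 14 genes that reached the FPKM minimum 8 were higher in BMDM at an adjusted p under 0.05 in limma with Benjamini-Hochberg adjustment and 0 were higher in BSM, against 45.3% and 9.22% of all genes tested, and 10 had an unadjusted p under 0.05. The median log2 difference of the 14 was 2.25, against 0.81 over all genes tested. Apart from Csf3r (chosen after its values were seen), these genes reached the minimum only in BMDM libraries. A call as higher in BSM was thus hardly open to them, and nothing is read from its absence. The same filter favors a positive difference, so nothing is read from the number higher in BMDM or from the median either. The number higher in BMDM was 6 with quantile normalization and 6 with the same sum of FPKM, where 1515 and 968 of the 6364 genes tested were called in that direction. It was also 6 without BSM replicate 1 and 6 without BSM replicate 3, and 13 without BMDM replicate 2. The set of genes tested was kept when a library was left out. Several of the 14 reached the minimum only in BMDM replicate 2, so the 13 include genes below it in the libraries kept. With the ALEXA-Seq values the number was 13 of 14 too, again with 0 higher in BSM, where 37.1% and 10.9% of all genes tested were called in these directions. Among those called were Mpo (6.22, standard error 0.55, adjusted p = 8.3e-05), S100a9 (4.73, standard error 0.85, adjusted p = 0.00259), Elane, the neutrophil elastase (4.27, standard error 0.60, adjusted p = 0.000848), and Mmp8 (3.94, standard error 0.22, adjusted p = 8.75e-06).

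The little Lyz2 measured in BSM was compared with other transcripts of BMDM in the same libraries. Lyz2 in BSM replicates 1, 2 and 3 was 0.28%, 0.358% and 0.317% of its BMDM mean, and these values were close to each other. Ccr2, the chemokine receptor of inflammatory monocytes, was 0.00845%, 0.266% and 0.239%. Ly6c2, Elane and S100a8 were listed at 0 in all 3 BSM libraries, while F13a1, coagulation factor XIII of monocytes, was 1.2%, 0.423% and 0.197%. Chi3l3 stood at 0.0137%, 0.0355% and 0.0738% of its BMDM mean. In BSM replicate 1 Lyz2, Ccr2 and Chi3l3 were at their lowest FPKM of the 3 BSM libraries and F13a1 and Lyz1 at their highest. In the ALEXA-Seq values Lyz2 was at its highest there (152, against 135 and 124 in BSM replicates 2 and 3). Whether residual monocytes had a part in the BSM values was not tested.

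**Figure D4:**
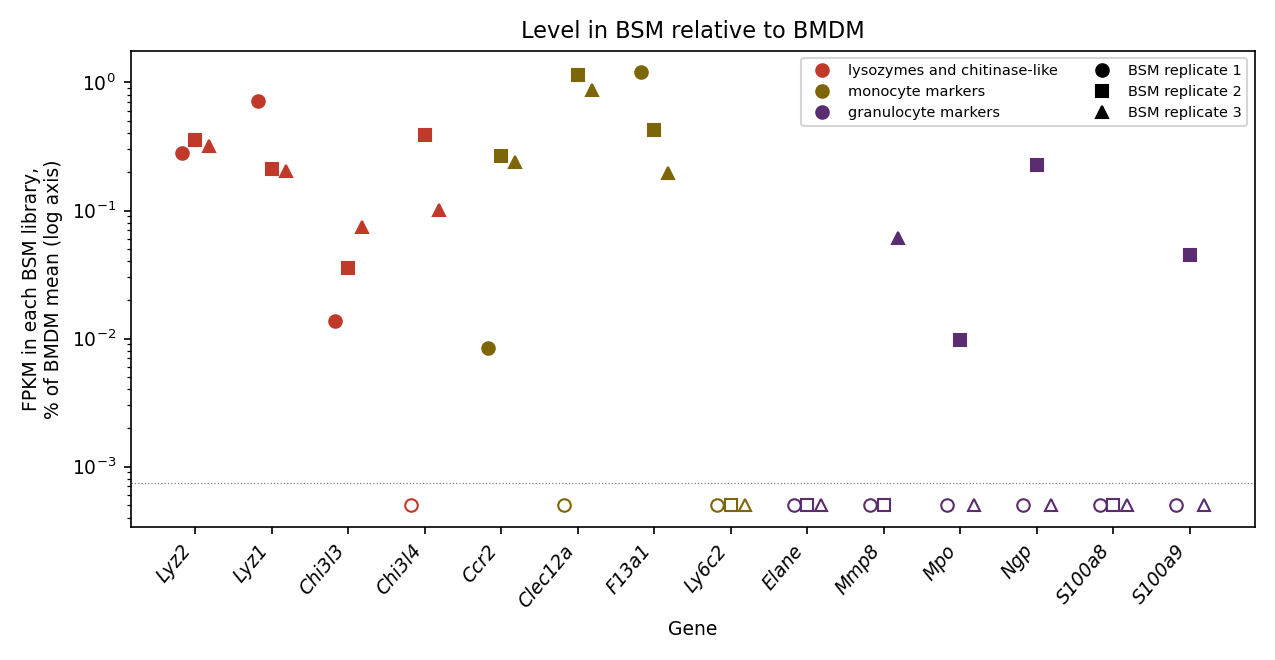
FPKM in each BSM library as a percent of the BMDM mean on a log axis, for Lyz2, Lyz1, Chi3l3 and Chi3l4 (red) and for monocyte (brown) and granulocyte (purple) markers that had a mean BMDM FPKM of at least 10 and were more than 10 times lower in BSM or at 0 there, with open symbols under the dotted line for values listed at 0. Lyz2 lies between 0.28% and 0.358% in the 3 BSM libraries, whereas Ccr2 spreads over more than a power of 10 and Ly6c2 is at 0 in all 3.

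The nearest genes to the lysozymes above 1 FPKM differed far less between the cell types. Directly before Lyz2, ENSMUSG00000078430 was listed at 0 in all 6 libraries and 9530003J23Rik reached at most 0.0134 FPKM. Beyond them Yeats4, a chromatin reader, was between 9.94 and 11.3 FPKM in BMDM and between 2.16 and 3.79 in BSM. Cpsf6, a factor of mRNA 3′ end processing on the other side, was between 3.10 and 3.45 in BMDM and between 3.05 and 3.77 in BSM. Beside Chi3l3 and Chi3l4, Chia, an active chitinase, and BC051070 were listed at 0 in all 6 libraries. Chit1, the macrophage chitinase next to Chi3l1, was at most 0.0466 FPKM in BMDM and at 0 in BSM, while Btg2, an antiproliferative gene on the same side, was between 9.33 and 14.7 in BMDM and between 148 and 276 in BSM.

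Most other genes of both families had little or no signal, as did many genes of the Cufflinks table. Among 14 further lysozyme and chitinase genes with FPKM values, 7 were at 0 in all 6 libraries and 12 stayed below 1 FPKM, among them Bclp2 (0.109 to 0.230 in BMDM, 0 to 0.387 in BSM), the chitinase-like neighbor of Chi3l3. Of all 35237 genes, 21167 were above 0 in some library and 9637 reached 1 FPKM, so nothing is read from these counts. The only gene to reach the minimum was Ctbs, which encodes lysosomal chitobiase. It was 2.73, 1.72 and 2.36 FPKM in BMDM and 4.23, 3.14 and 4.33 in BSM. The groups did not overlap, but limma gave a log2 difference of -0.59 (standard error 0.25, adjusted p = 0.0787), so 0 genes of the list were called in either direction and 1 had an unadjusted p under 0.05. With the scalings that remove the overall shift it was called as higher in BSM (-1.24, adjusted p = 0.00854 with quantile normalization and -1.59, adjusted p = 0.00375 with the same sum).

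Genes that bind or sense peptidoglycan, the substrate of lysozyme, were called in both directions. Of 15 genes 6 reached the minimum, of which 1 was higher in BMDM and 1 in BSM (45.3% and 9.22% of all genes tested), and the median log2 difference of the 6 was 0.29, against 0.81 over all genes tested. Pglyrp1, a secreted peptidoglycan recognition protein of granulocytes, was 2.95, 11.3 and 2.53 FPKM in BMDM and between 0 and 0.0163 in BSM (log2 difference 2.47, standard error 0.48, limma adjusted p = 0.00392). It was highest in BMDM replicate 2, at 4.11 times the mean of the others, as were the granulocyte markers, and without that library its log2 difference was 1.89 (limma adjusted p = 0.000826). Cd14, a co-receptor for bacterial products, was 0.352, 0.424 and 1.15 in BMDM and 6.43, 4.63 and 4.35 in BSM (-1.92, standard error 0.29, limma adjusted p = 0.00125). Tlr2, a receptor for bacterial lipoproteins, had a log2 difference of 0.65 (limma adjusted p = 0.0856), which was -0.12 with quantile normalization. Slc15a3, a peptide transporter of endolysosomes, was 4.96, 14.6 and 5.04 in BMDM and 28.3, 18.4 and 9.04 in BSM (-1.11, limma adjusted p = 0.0938) and was called only without BMDM replicate 2 or BSM replicate 3 and with both scalings. Nod1 and Nod2, the intracellular sensors, stayed at or below 1.60 and 0.165 FPKM.

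Chi3l3 is used as a marker of alternative activation by interleukin-4 and interleukin-13, and further markers of that state differed in level beside it. Retnla was listed at 0 in all 6 libraries and Arg1, which encodes arginase, was at most 0.143 FPKM. Of the 18 genes on the list, 7 stayed below 1 FPKM in all 6 libraries. Mrc1 was present in both cell types, at 1.07 to 1.63 FPKM in BMDM and 0.389 to 1.75 in BSM. Of 18 genes on the list 8 reached the minimum, 4 were higher in BMDM and 0 in BSM (45.3% and 9.22% of all genes tested, so that the share of the list is near the background), 5 had an unadjusted p under 0.05, and the median log2 difference of the 8 was 1.34, against 0.81 over all genes tested. Mgl1, a lectin, was 3.75, 4.87 and 4.53 in BMDM and between 0.0426 and 0.165 in BSM (2.28, standard error 0.26, limma adjusted p = 0.000293). The other 3 were transcription factors. Stat6, which carries the interleukin-4 signal, had a log2 difference of 1.85 (limma adjusted p = 0.0106), which was 1.06 (adjusted p = 0.0932) with quantile normalization and 0.75 (adjusted p = 0.283) with the same sum. Irf4 had 1.95 (limma adjusted p = 0.0121), and 1.35 (adjusted p = 0.0749) and 1.13 (adjusted p = 0.196) with these scalings. Klf4 had 1.93 (limma adjusted p = 0.00168), and 1.27 (adjusted p = 0.0315) and 0.87 (adjusted p = 0.102). Only the Mgl1 call therefore held under both scalings. Irf4 also lost its call without BMDM replicate 1 (limma adjusted p = 0.0551) and with the ALEXA-Seq values (adjusted p = 0.0663), and with no FPKM minimum both Irf4 (adjusted p = 0.0580) and Stat6 (adjusted p = 0.0508) lost theirs. Pparg, below the minimum of 3 FPKM, was 0.777 to 1.29 in BMDM and at most 0.0252 in BSM. It was called as higher in BMDM with a minimum of 1 (limma adjusted p = 0.00639) and with none (limma adjusted p = 0.00991).

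Of 8 partners described for Chi3l1, 4 reached the minimum, and 2 of them were higher in BMDM and 0 in BSM, against 45.3% and 9.22% of all genes tested. An unadjusted p under 0.05 was found for 2, and the median log2 difference was 2.26, against 0.81 over all genes tested. Cd44, a receptor for hyaluronan, was 43.2, 39.0 and 43.3 FPKM in BMDM and 0.269, 0.253 and 0.317 in BSM (5.06, standard error 0.21, limma adjusted p = 2.91e-06). Lgals3, which encodes galectin-3, was 15.8, 19.8 and 17.5 in BMDM and 0.0215, 0.0288 and 0.0234 in BSM (4.18, standard error 0.22, limma adjusted p = 7.5e-06). Both reached the minimum only in BMDM, which favors a difference in that direction, so nothing is read from the 2 calls or the median. Chi3l1 itself was low in both cell types. Tmem219, a receptor subunit for Chi3l1, had a log2 difference of 0.33 (limma adjusted p = 0.463), which was -0.38 with quantile normalization, and Il13ra2, its binding partner, was listed at 0 in all 6 libraries.

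Of 10 transcription factors known to act on lysozyme and granule genes in myeloid cells 9 had an entry with FPKM and 6 reached the minimum, with 2 higher in BMDM and 1 higher in BSM, against 45.3% and 9.22% of all genes tested. The median log2 difference was 0.21, against 0.81 over all genes tested. Cebpb was 3.99, 7.62 and 5.00 FPKM in BMDM and 0.0193, 0.671 and 0.753 in BSM (2.14, standard error 0.33, limma adjusted p = 0.00139). Myb, a factor of marrow progenitors, was 1.78, 7.17 and 3.84 in BMDM and between 0 and 0.0645 in BSM (2.21, standard error 0.41, limma adjusted p = 0.00318), and it was highest in BMDM replicate 2. Egr1, an immediate early gene, went the other way, at 0.0404, 0.753 and 0.408 in BMDM and 141, 128 and 94.3 in BSM (-6.46, standard error 0.29, limma adjusted p = 3.4e-06). Sfpi1, which encodes PU.1, was 2.16, 5.24 and 3.15 in BMDM and 3.07, 1.65 and 1.74 in BSM, with overlapping groups, and its log2 difference of 0.49 (limma adjusted p = 0.238) was -0.12 with quantile normalization. Cebpa (-0.54, limma adjusted p = 0.111) was called as higher in BSM with both scalings, with the ALEXA-Seq values and without BSM replicate 1, and Runx1 (-0.06, limma adjusted p = 0.829) with both scalings.

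The stretch before the start of each gene was read from RefSeq (GRCm38.p6) to see what the pairs share. In the 250 bases before the start, Lyz2 and Lyz1 were identical at 200 of 248 aligned bases (80.6%) and Chi3l3 and Chi3l4 at 201 of 221 (91.0%). The letters AGGAAGT, searched on both strands (ACTTCCT on the other) as a form of the site bound by ETS factors such as PU.1, occurred there in 4 of the 5 genes and in 2525 of 32851 promoters (7.69%). The paralogs are copies of each other, so these are not 4 separate occurrences, and the motif was chosen with the genes known. On both strands as well, a site of the CEBP type, TTGCNNAA or TTNNGCAA, occurred in Lyz1 and Chi3l4 and in 9.56% of promoters, and TATAAA or TTTATA in Chi3l4 and in 12.4%. The palindromic STAT6 site with a spacer of 4 bases was in none of the 5 and in 5.85% of promoters. The bases from -120 to -50 are shown with the ETS letters in capitals, all from the minus strand, for Lyz2 (chr10:117282322-117282392), Lyz1 (chr10:117292918-117292988), Chi3l3 (chr3:106167614-106167684) and Chi3l4 (chr3:106219529-106219599).
Lyz2: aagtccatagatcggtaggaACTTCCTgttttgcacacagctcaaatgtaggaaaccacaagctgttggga
Lyz1: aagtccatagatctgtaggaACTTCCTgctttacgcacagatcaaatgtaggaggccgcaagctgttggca
Chi3l3: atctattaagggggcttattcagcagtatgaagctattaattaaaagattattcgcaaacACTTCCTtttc
Chi3l4: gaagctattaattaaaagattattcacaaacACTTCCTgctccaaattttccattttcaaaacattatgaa

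The ETS letters lay from -100 to -94 in both lysozymes, from -60 to -54 in Chi3l3 and from -89 to -83 in Chi3l4, counted from the annotated start. Before the site Chi3l3 and Chi3l4 carry nearly the same letters. Chi3l4 spans 18018 bases in the Cufflinks table and 17989 in RefSeq, whereas Chi3l3 spans 20011 in both. Whether the unlike distances come from where each start is annotated was not tested. The positions of all matches, that of TATAAA in Chi3l4 included, depend on these starts. These are matches of letters, and no factor binding was measured. Chi3l1 had no such match in its window.

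The genes with the closest levels were taken by the Euclidean distance over the 6 libraries in log2(FPKM + 1). This distance compares levels, so a near gene need not vary between libraries in the same way. For Lyz2 the nearest genes were Ifitm3, an interferon-induced membrane protein (distance 2.34), S100a11 (3.16) and Anp32b (5.06). Anp32b was 229, 298 and 292 FPKM in BMDM and 15.3 to 16.3 in BSM, a far smaller gap than that of Lyz2. For Chi3l3 the nearest genes were Cybb, the catalytic subunit of the phagocyte oxidase (1.27), Ifi203 (1.83) and a gene listed without a symbol (2.07). Lyz1 was nearest to Plk1 (0.59), Bub1b (0.59) and Gstm1 (0.61), of which Plk1 and Bub1b encode mitotic kinases. Chi3l4 was nearest to Prc1 (0.25) and Nusap1 (0.29), both proteins of the mitotic spindle, and to Lgals1 (0.29). Plk1, at 17.9, 53.3 and 26.6 FPKM in BMDM replicates 1, 2 and 3, was highest in replicate 2 like Lyz1. In the ALEXA-Seq values Ifitm3 and Anp32b were again among the 3 nearest to Lyz2, but none of the 3 was shared for Lyz1, Chi3l3 or Chi3l4.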

How the data were processed

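The authors deposited a gene table of FPKM made with Cufflinks and a gene table of ALEXA-Seq signal, both from the same 6 RNA-Seq libraries, without read counts. The unit and normalization of the ALEXA-Seq signal are not given in the sources used here. The submitters' processing notes name CASAVA 1.7.0, TopHat 1.3.1, Bowtie 0.12.7, Cufflinks 1.0.3 and the mm9 build, and how fragments shared by near-identical genes were counted is not given. Starts in the files count from 0 and are printed from 1.

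Groups and replicates were taken from the sample labels. FPKM were compared with limma 3.58.1 in R 4.3.3 (lmFit, then eBayes with trend) after adding 1 and taking log2. Genes had to reach 3 FPKM in 1 or more libraries, which left 6364, with Benjamini-Hochberg adjustment over all of them and a threshold of 0.05. A gene that reached the minimum in 1 cell type only was favored for a difference in that direction. This holds for Pglyrp1, Mgl1, Irf4, Cebpb, Myb, Cd44 and Lgals3 in BMDM and for Cd14, Egr1 and Tgm2 in BSM, among others. Adjusted p-values measure the spread between 3 pools of cells per group. As many genes with the highest ALEXA-Seq signal were tested in the same way. The fit was tested on simulated data. The 5 genes and all lists were chosen with earlier results of these data known. The genes named are these 5, list genes (those that passed the test first, at most 6 per list) and the 3 nearest genes of each of the 5 that reached the minimum. Names outside this rule (BC051070, Btg2, Yeats4, Cpsf6, Mrc1, Pparg and single markers of other cell types) were chosen after their values were seen. Alternatives tried were 0.1 as pseudocount, 1 or nothing as FPKM minimum, quantile normalization, the same sum for every library, the ALEXA-Seq signal, the replicate number as a block, and leaving out each library in turn. The share of Chi3l4 was added as a result after the data were seen. Sequences came from GENCODE M21 (GRCm38) and RefSeq (GRCm38.p6) and were matched by gene name, for 5 of 5 genes, with Biopython 1.88. Plots were made with Python 3.11.15 and matplotlib 3.10.9. Some markers of the lists are not reported here and were left out of their counts and sums.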

Additional observations from a re-analysis of the deposited data

How the results depend on the processing

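Lyz2, Lyz1, Chi3l3 and Chi3l4 were higher in BMDM under every alternative run. Chi3l1 turned direction, with a log2 difference of -0.0385 with the same sum of FPKM and a ratio of means of 0.801. With each library left out in turn its log2 difference lay between -0.0529 and 0.210 and its ratio between 0.518 and 3.36, the lowest of both without BMDM replicate 2. Over all genes, 1515 were higher in BMDM and 1088 in BSM with quantile normalization, and 968 and 1585 with the same sum. With these scalings, in that order, the numbers higher in BSM were 1 and 1 for the other lysozymes and chitinases, 2 and 3 for peptidoglycan genes, 3 and 3 for the regulators and 1 and 1 for granulocyte markers (Csf3r, chosen after its values were seen), and those of alternative activation higher in BMDM were 2 and 1. With the ALEXA-Seq values 2 peptidoglycan genes and 13 granulocyte markers were higher in BMDM, and 1 gene of alternative activation and 2 regulators in BSM. A pseudocount of 0.1 gave 13 granulocyte markers higher in BMDM and 1 gene of alternative activation (Tgm2, chosen after its values were seen) higher in BSM. An FPKM minimum of 1 gave 2 peptidoglycan genes higher in BMDM.

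With each library left out in turn, between 2037 and 3194 genes were higher in BMDM and between 461 and 738 in BSM. The ranges, BMDM first, were 0 to 0 and 0 to 0 for the other lysozymes and chitinases, 1 to 2 and 1 to 2 for peptidoglycan genes, 3 to 4 and 0 to 2 for alternative activation, 2 to 2 and 0 to 0 for the partners of Chi3l1, 2 to 2 and 1 to 2 for the regulators, and 6 to 13 and 0 to 0 for granulocyte markers. Leaving out BMDM replicate 2 gave the 13 and, like BSM replicate 3, the 2 peptidoglycan genes higher in BSM. Leaving out BSM replicate 1 gave 2 peptidoglycan genes higher in BMDM and 2 genes of alternative activation and 2 regulators higher in BSM, and leaving out BSM replicate 3 gave 1 gene of alternative activation. The cause was not tested.

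The replicate number as a block changed 1 list by over 1.5 times, with 1 gene of alternative activation (Tgm2) higher in BSM. Whether same-numbered samples form pairs is not given by the labels. The deviations of same-numbered libraries from their group means correlated at -0.0195, -0.00836 and 0.134 over 6364 genes. Replicates 1 and 2 did not correlate best with their own number and replicate 3 did. With 3 libraries per group these correlations cannot decide whether the samples are paired. Depth limits the values near 0, which cannot be given an interval.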

Other observations

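Most markers of other brain cells were low in both cell types, with exceptions. Of 6 astrocyte markers 5 stayed below 1 FPKM in all 6 libraries, and the exception, Slc1a3, was at 9.51, 5.18 and 6.71 in the 3 BSM libraries and at most 0.0922 in BMDM. All 4 neuron markers found in the Cufflinks table and 4 of 6 oligodendrocyte markers stayed below 1 FPKM, whereas Mbp was between 5.56 and 8.58 in BMDM and between 0.660 and 1.16 in BSM. Of the endothelial and choroid plexus markers, Ttr was 8.05 FPKM in BSM replicate 2, 0.794 in BSM replicate 3 and at 0 elsewhere. Lymphocyte markers summed to 0.654, 8.86 and 1.93 FPKM in BMDM replicates 1, 2 and 3. Nkg7, at 5.33, made up most of the sum in replicate 2 but not in the others.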
